A study of Mus musculus with 12 samples.

Results

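The genes described here are 10 imprinted genes that control growth and are known from stem cells, H19, Igf2, Igf2r, Meg3, Dlk1, Grb10, Peg3, Plagl1, Ndn and Gnas. They were selected by their symbols and not by a rule on their values, although earlier results of these data were known. They are 10 of the 48795 genes in the table. RNA was sequenced from leukemic long-term hematopoietic stem cells (LTHSC), the cells at the top of blood formation, sorted from marrow of C57BL/6 animals that had chronic myeloid leukemia (CML). There were 3 groups of 4 libraries. Prx1_Cre mice carried a Cre recombinase driven by the Prx1 promoter, which is active in mesenchymal stroma. Tek_Cre mice carried a Cre driven by the Tek promoter, which is active in endothelial cells and also in blood-forming cells. No_Cre mice carried no Cre and served as the reference for both. All 3 groups share the strain and the leukemia, and the leukemia model and the Cxcl12 genotype are not given in the sources used here. The labels call the mice both recipients and primary. Total counts per library ran from 15715603 to 28860324. By its title the series is about niche Cxcl12, and the question put to the 10 genes was whether their RNA differed between stem cells from mice with either Cre and those without.

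An imprinted gene is read from 1 parental copy, which is fixed by DNA methylation laid down in the germ line. Many imprinted genes act on growth before birth, and as a rule those read from the paternal copy drive growth and those read from the maternal copy restrain it. In mice several of them are known from work on hematopoietic stem cells, where H19, Meg3 and Ndn have been linked to quiescence or maintenance. The counts do not tell the parental copies apart, so what follows is about the total RNA of each gene.

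In Prx1_Cre cells Grb10 and Igf2r, both read from the maternal copy in most tissues and both brakes on insulin-like growth factor (IGF) signalling, stood 3.64-fold and 3.34-fold above No_Cre. Ndn, a paternally read growth suppressor, stood 2.21-fold below. Dlk1 and Gnas did not pass the test. In Tek_Cre cells the changes of the same 5 genes against No_Cre were at most 1.39-fold. The other 5 genes had between 0 and 31 counts in all 12 libraries together. Among them Plagl1 had nearly all its counts in Prx1_Cre and Meg3 most of its counts in Tek_Cre, and H19 had 0 counts in every library.

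Grb10, Igf2r and Ndn, the 3 tested genes that changed in Prx1_Cre, have very different promoters by content of CG, the pair of bases at which imprints are written. The sequences below are the 250 bases upstream of RefSeq start sites (GRCm38.p6), read 5′ to 3′ on the strand of the gene, with each CG in capitals. They are shown for their CG content, which differs as well among genes that did not pass. The Gnas windows hold 14 to 29 CG pairs and the Dlk1 window holds 8. No methylation was measured here, and whether an imprint lies in these windows was not tested. For Grb10 2 start sites are given, Grb10 upstream start at chr11:12037421-12037670 (minus strand) and Grb10 downstream start at chr11:12027972-12028221 (minus strand). The Igf2r window is chr17:12769707-12769956 (minus strand) and the Ndn window is chr7:62348027-62348276 (plus strand), which lies inside the longer Ndn span of GENCODE M21.
Grb10 upstream start: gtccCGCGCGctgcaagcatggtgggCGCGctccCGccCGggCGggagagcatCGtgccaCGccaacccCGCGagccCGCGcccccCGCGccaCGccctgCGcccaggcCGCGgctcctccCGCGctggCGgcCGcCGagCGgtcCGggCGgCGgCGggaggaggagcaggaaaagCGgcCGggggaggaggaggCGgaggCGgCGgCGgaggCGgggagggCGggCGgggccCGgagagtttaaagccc
Grb10 downstream start: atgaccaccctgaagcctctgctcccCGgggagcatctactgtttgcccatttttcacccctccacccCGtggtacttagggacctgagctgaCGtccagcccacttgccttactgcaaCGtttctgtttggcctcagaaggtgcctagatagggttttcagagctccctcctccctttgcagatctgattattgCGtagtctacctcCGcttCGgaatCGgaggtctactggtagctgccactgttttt
Igf2r: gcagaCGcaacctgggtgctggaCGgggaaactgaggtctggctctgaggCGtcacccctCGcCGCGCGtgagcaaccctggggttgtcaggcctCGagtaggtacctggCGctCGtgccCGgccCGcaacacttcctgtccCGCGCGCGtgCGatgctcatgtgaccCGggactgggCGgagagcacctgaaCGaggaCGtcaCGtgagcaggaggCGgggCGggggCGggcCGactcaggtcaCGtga
Ndn: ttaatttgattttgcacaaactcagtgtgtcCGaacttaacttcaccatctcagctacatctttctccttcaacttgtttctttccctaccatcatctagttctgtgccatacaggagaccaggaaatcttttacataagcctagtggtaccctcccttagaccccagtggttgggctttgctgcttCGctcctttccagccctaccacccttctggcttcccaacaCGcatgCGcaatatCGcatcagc

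The upstream Grb10 window holds 40 CG pairs, more than 98.7% of the 32851 promoter windows in the table, and the downstream one holds 8. The Igf2r window holds 27 CG pairs, more than 91.4% of windows, and the Ndn window holds 5, against a median of 6 over all windows. Of the 10 genes 9 have windows in the table, 17 in all, with 0 to 40 CG pairs. Counts per gene do not say which start site was used, so the values below cannot be assigned to either Grb10 window.

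In the annotation (GENCODE M21, GRCm38) Grb10 lies on chromosome 11 from 11930508 to 12038683 on the minus strand, Igf2r on chromosome 17 from 12682406 to 12769664 on the minus strand and Ndn on chromosome 7 from 62346569 to 62350262 on the plus strand. Dlk1 lies on chromosome 12 from 109452823 to 109463336 and Gnas on chromosome 2 from 174284320 to 174346744, both on the plus strand. All 5 are protein-coding, and reads were counted over the exons of a gene as a whole. No exon base of Grb10, Igf2r, Ndn or Dlk1 is shared with another annotated gene. Of the 11186 exon bases of Gnas, 21.96% lie opposite Nespas or Gm20721 on the other strand. The library kit does not mark the strand of a read, so reads of such partners and of Gnas itself cannot be separated.

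Values are CPM, the counts of a gene scaled to a fixed library total with trimmed mean of M-values (TMM) factors. Changes are log2 fold changes ± SE from edgeR's quasi-likelihood test on all 12 libraries, and a gene passed where the p-value adjusted by Benjamini-Hochberg over all 14756 genes tested was under 0.05. The background is high: 75.6% of all genes tested passed in Prx1_Cre against No_Cre (36.7% higher, 39.0% lower), 52.9% in Tek_Cre against No_Cre (26.4% higher, 26.5% lower) and 77.6% in Prx1_Cre against Tek_Cre (37.8% higher, 39.8% lower). The libraries of the groups did not overlap for 68.6%, 48.7% and 69.3% of all genes in these comparisons. Of the 10 genes 5 had enough counts to be tested, and 3 of these 5 passed in Prx1_Cre against No_Cre (2 higher, 1 lower), 2 in Tek_Cre against No_Cre (1 higher, 1 lower) and 3 in Prx1_Cre against Tek_Cre (2 higher, 1 lower). For the same 3 genes, Grb10, Igf2r and Ndn, the Prx1_Cre libraries did not overlap with those of either other group. These shares are near the background and are not a result about the 10 genes. The size of the changes is therefore given beside the test, and against a change of more than 2-fold (edgeR's glmTreat, chosen after the values were seen) 14.7% of all genes passed in Prx1_Cre against No_Cre, 7.55% in Tek_Cre against No_Cre and 19.5% in Prx1_Cre against Tek_Cre. The 3 comparisons share their libraries, so they are not independent of each other.

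The libraries themselves differed between groups. Immunoglobulin genes took 0.297 to 0.310% of the counts in Prx1_Cre, 25.3 to 26.1% in Tek_Cre and 7.33 to 7.73% in No_Cre. The 15 LTHSC markers all had counts in every group, and they summed to 1383 to 1424 CPM in Prx1_Cre, 2912 to 2923 CPM in Tek_Cre and 2437 to 2478 CPM in No_Cre. The 13 erythroid markers, also with counts in every group, summed to 5947 to 6116 CPM in Prx1_Cre, 1155 to 1194 CPM in Tek_Cre and 1620 to 1664 CPM in No_Cre, and the 11 neutrophil markers summed to 52370 to 54666 CPM in Prx1_Cre, 38152 to 38641 CPM in Tek_Cre and 30062 to 30401 CPM in No_Cre. In bulk RNA, fewer cells of a type and less RNA per cell cannot be told apart, and the part of these cell type differences in the results was not tested. Within groups 1 library stood apart: in its pairs with the other Prx1_Cre libraries, Prx1_Cre replicate 4 gave a chi-square per degree of freedom over genes of 10.5 to 13, against 1.75 to 7.2 in all other pairs of 1 group. The study calls the libraries biological replicates. P-values measure only the spread between them, and it was not tested how much of it comes from separate animals. Without Prx1_Cre replicate 4 the changes in Prx1_Cre against No_Cre were 1.84 for Grb10, 1.76 for Igf2r and -1.2 for Ndn, and against Tek_Cre 2.03, 1.29 and -1.09, and all 6 calls were kept.

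**Figure D1:**
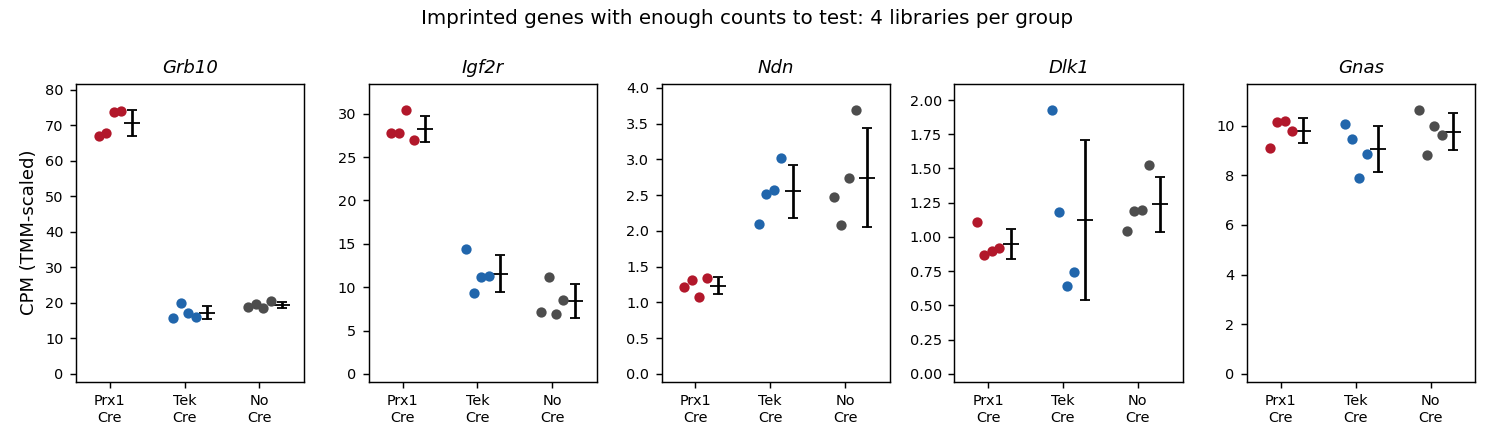
CPM of the 5 genes tested, 1 panel per gene, with 1 point per library and the mean ± SD of the 4 libraries beside the points (groups from left to right Prx1_Cre, Tek_Cre, No_Cre; each panel has its own axis, from 0). All 4 Prx1_Cre libraries lie above the other 8 for Grb10 and Igf2r and below the other 8 for Ndn, while the groups overlap for Dlk1 and Gnas.

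Grb10 encodes an adaptor that binds the insulin and IGF1 receptors and limits what they pass on. Its level was 67.1, 67.7, 73.6 and 74.0 CPM in the Prx1_Cre libraries, 15.8, 20.04, 17.1 and 16.1 CPM in the Tek_Cre libraries and 18.9, 19.7, 18.6 and 20.5 CPM in the No_Cre libraries. Every Prx1_Cre library was thus far above every library of the other groups, while the Tek_Cre and No_Cre libraries overlapped. In Prx1_Cre against No_Cre Grb10 rose by 1.86 ± 0.06 (log2, adjusted p = 9.37e-18, edgeR), with means of 70.6 ± 3.70 CPM in Prx1_Cre and 19.4 ± 0.860 CPM in No_Cre (SD, n = 4 each). Against Tek_Cre, with a mean of 17.3 ± 1.93 CPM, the Prx1_Cre cells were higher by 2.05 ± 0.07 (adjusted p = 2.11e-18, edgeR). Both changes also passed the test against a 2-fold change (adjusted p = 6.73e-12 against No_Cre and 1.99e-13 against Tek_Cre, edgeR). In Tek_Cre against No_Cre Grb10 fell by 0.18 ± 0.07 (adjusted p = 0.0389, edgeR), a 1.13-fold difference with overlapping libraries. That call was lost on leaving out any of 5 of the 8 libraries compared, No_Cre replicate 2 (adjusted p = 0.0764, edgeR) or 4 (0.0934) or Tek_Cre replicate 1 (0.124), 3 (0.0614) or 4 (0.102).

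Igf2r encodes the receptor that takes up IGF2 and carries it to lysosomes for breakdown. Its level was 27.8, 27.8, 30.4 and 26.9 CPM in the Prx1_Cre libraries, 14.5, 9.32, 11.2 and 11.3 CPM in the Tek_Cre libraries and 7.15, 11.2, 6.85 and 8.49 CPM in the No_Cre libraries. Every Prx1_Cre library was above every other library, and the Tek_Cre and No_Cre libraries overlapped. Igf2r rose by 1.74 ± 0.12 in Prx1_Cre against No_Cre (adjusted p = 4.45e-12, edgeR), with means of 28.2 ± 1.52 CPM in Prx1_Cre and 8.43 ± 1.99 CPM in No_Cre (SD, n = 4 each). It was higher in Prx1_Cre than in Tek_Cre by 1.27 ± 0.12 (adjusted p = 8.09e-10, edgeR), where the Tek_Cre mean was 11.6 ± 2.13 CPM. Against a 2-fold change the adjusted p was 3.10e-06 in Prx1_Cre against No_Cre and 0.0212 in Prx1_Cre against Tek_Cre (edgeR). In Tek_Cre against No_Cre it rose by 0.47 ± 0.13 (adjusted p = 0.00447, edgeR), a 1.39-fold difference. The order of the 3 groups was therefore Prx1_Cre, Tek_Cre, No_Cre for Igf2r and Prx1_Cre, No_Cre, Tek_Cre for Grb10, with Tek_Cre and No_Cre close and overlapping for both genes.

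Ndn encodes necdin, a protein of the MAGE family that restrains cell division. Its level was 1.21, 1.32, 1.08 and 1.33 CPM in the Prx1_Cre libraries, 2.10, 2.51, 2.57 and 3.01 CPM in the Tek_Cre libraries and 2.47, 2.08, 2.74 and 3.69 CPM in the No_Cre libraries. No Prx1_Cre library reached the lowest library of either other group. These levels rest on 30 to 37 counts per Prx1_Cre library, 34 to 73 per Tek_Cre library and 54 to 80 per No_Cre library. Ndn fell by 1.14 ± 0.19 on the log2 scale in Prx1_Cre against No_Cre (adjusted p = 9.61e-06, edgeR), and against Tek_Cre it fell by 1.05 ± 0.20 (adjusted p = 4.14e-05, edgeR). Neither change passed the test against a 2-fold change (adjusted p = 0.460 and 0.695, edgeR). Tek_Cre and No_Cre, with means of 2.55 ± 0.373 CPM and 2.75 ± 0.687 CPM (SD, n = 4 each), differed by -0.09 with a 95% interval of -0.46 to 0.28.

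Dlk1 encodes a membrane protein related to Notch ligands and marks some fetal progenitors. It had 21 to 34 counts per Prx1_Cre library, 12 to 44 per Tek_Cre library and 27 to 33 per No_Cre library. Its level was 1.11, 0.866, 0.898 and 0.917 CPM in the Prx1_Cre libraries, 1.93, 1.183, 0.643 and 0.743 CPM in the Tek_Cre libraries and 1.04, 1.19, 1.19 and 1.52 CPM in the No_Cre libraries. The groups overlapped, and the Tek_Cre libraries spread widest, with replicate 1 the highest of all 12. The change in Prx1_Cre against No_Cre was -0.37 with a 95% interval of -0.93 to 0.19 (adjusted p = 0.225, edgeR), so a fall by 2-fold lies outside the interval. In Tek_Cre against No_Cre it was -0.12 (interval -0.69 to 0.45).

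Gnas encodes the stimulatory G protein subunit that couples receptors to cyclic AMP. The main transcript is read from both copies in most tissues, and other start sites of the locus are imprinted. Its level was 9.09, 10.1, 10.2 and 9.80 CPM in the Prx1_Cre libraries, 10.1, 9.47, 7.88 and 8.88 CPM in the Tek_Cre libraries and 10.6, 8.80, 9.99 and 9.64 CPM in the No_Cre libraries. The 3 groups overlapped throughout. The change was 0.00 in Prx1_Cre against No_Cre with a 95% interval of -0.18 to 0.19, and -0.11 in Tek_Cre against No_Cre with an interval of -0.30 to 0.09, so a 2-fold change lies outside both intervals. The antisense partner Nespas had 0 counts in Prx1_Cre and in Tek_Cre, against 1 count in No_Cre.

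**Figure D2:**
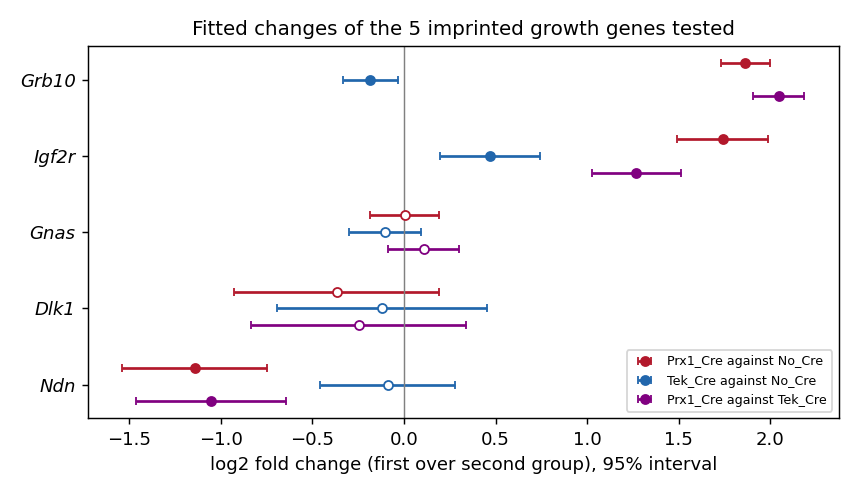
Log2 fold changes of the 5 genes tested in the 3 comparisons (x axis, first group over second), with 95% intervals, where filled points passed at an adjusted p of 0.05 in edgeR. Grb10 and Igf2r lie between 1.27 and 2.05 in the comparisons with Prx1_Cre and Ndn lies near -1, while all intervals of Dlk1 and Gnas cross 0.

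Per kilobase of exon, which allows levels of different genes to be compared, Grb10 was the highest of the 10 genes in every group, at 7.77 ± 0.407 CPM per kb in Prx1_Cre, 1.90 ± 0.212 in Tek_Cre and 2.13 ± 0.0947 in No_Cre (SD, n = 4 each). In Prx1_Cre cells Igf2r followed at 3.03 ± 0.164 CPM per kb, then Gnas at 0.876 ± 0.0451, Ndn at 0.334 ± 0.0321 and Dlk1 at 0.168 ± 0.0196, each step larger than the spread. In Tek_Cre cells Igf2r had 1.24 ± 0.229 CPM per kb, and Gnas at 0.811 ± 0.0833 and Ndn at 0.691 ± 0.101 lay within each other's spread. In No_Cre cells Igf2r at 0.906 ± 0.214 CPM per kb, Gnas at 0.873 ± 0.0682 and Ndn at 0.743 ± 0.186 could not be ranked among themselves. Dlk1 was the lowest of the 5 in Tek_Cre (0.199 ± 0.103) and in No_Cre (0.219 ± 0.0357). The CPM of the 10 genes summed to 106.7 to 116.4 CPM in the Prx1_Cre libraries, 39.7 to 44.5 CPM in Tek_Cre and 39.4 to 43.8 CPM in No_Cre, and Grb10 and Igf2r made up nearly all of the difference.

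For the 5 genes below the filter on low counts the raw counts are the measurement, and their tests come from the same model with no filter, where 45.7% of 29159 genes passed in Prx1_Cre against No_Cre, 33.1% in Tek_Cre against No_Cre and 47.5% in Prx1_Cre against Tek_Cre. Where a group had no count, folds were computed as if it had 3 counts over its 4 libraries, with the counts of the other group taken as they are. The exact 95% limit of the ratio, which also takes in the counting error of the other group, is weaker and stands beside the fold. Intervals and floors cover counting error only, since amplified reads without molecular identifiers are not independent molecules.

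Plagl1, a paternally read zinc finger factor that slows growth and regulates other imprinted genes in the mouse, had 8, 4, 4 and 9 counts in the Prx1_Cre libraries. It had 1, 0, 0 and 0 counts in the Tek_Cre libraries and 0 in all 4 No_Cre libraries. Every Prx1_Cre library was above every other library. The 25 counts in Prx1_Cre against 0 in No_Cre put it at least 7.51-fold higher at that floor (exact lower limit of the ratio 5.67; adjusted p = 4.24e-06, edgeR with no filter), and against the single count in Tek_Cre the ratio was 18.6 with an exact 95% interval of 3.04 to 762 (adjusted p = 0.000245, edgeR with no filter). DESeq2 gave adjusted p = 0.000591 and 0.00699 for the 2 comparisons. Even so, the mean level in Prx1_Cre was 0.236 ± 0.106 CPM (SD, n = 4).

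Meg3 is the maternally read long non-coding RNA next to Dlk1. It had 2, 3, 1 and 2 counts in the Prx1_Cre libraries, 2, 8, 5 and 6 in the Tek_Cre libraries and 0, 2, 0 and 0 in the No_Cre libraries. Scaled to depth, every Tek_Cre library was above every No_Cre library, while Prx1_Cre overlapped with both. Tek_Cre was above No_Cre with a ratio of 12.7 (exact 95% interval 3.12 to 112; adjusted p = 0.000296, edgeR with no filter). Prx1_Cre was below Tek_Cre with a ratio of 0.283 (0.108 to 0.665; adjusted p = 0.0168, edgeR with no filter), a call that DESeq2 did not make (adjusted p = 0.0552) and that was lost without Tek_Cre replicate 2 (adjusted p = 0.151, edgeR) or Prx1_Cre replicate 3 (0.0590). Prx1_Cre against No_Cre did not pass (ratio 3.61, interval 0.720 to 34.9; adjusted p = 0.191, edgeR), although it did without No_Cre replicate 2, which holds both No_Cre counts (adjusted p = 0.0244). Of the exon bases of Meg3, 8.29% are shared with microRNA or other genes of the locus.

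Igf2, the fetal growth factor that Igf2r removes, had 0, 0, 0 and 1 counts in the Prx1_Cre libraries, 0 in all 4 Tek_Cre libraries and 3, 3, 1 and 0 counts in the No_Cre libraries. The groups overlapped at 0. Tek_Cre was at least 1.92-fold lower than No_Cre at the floor (adjusted p = 0.0345, edgeR with no filter). The exact upper limit of that ratio, 0.842, allows a much smaller fall, and the call was not made by DESeq2 (adjusted p = 0.284) and was lost without No_Cre replicate 1 (adjusted p = 0.0946, edgeR) or 2 (0.0944) or any 1 Tek_Cre library (0.0620 to 0.0851). Prx1_Cre against No_Cre gave a ratio of 0.129 (0.00286 to 1.003; adjusted p = 0.0862, edgeR with no filter), and it passed without Prx1_Cre replicate 4, which holds the 1 count (adjusted p = 0.0267), and without No_Cre replicate 4 (0.0497). Of the Igf2 exon bases 64.55% are shared with Gm49394 or Igf2os in the annotation used here. Only 1 of these partners is among the deposited genes, and it had 0 counts. Reads shared with it may not have been assigned to Igf2, and their share was not tested. Peg3, a paternally read zinc finger factor, had 1, 2 and 2 counts in Prx1_Cre, Tek_Cre and No_Cre, and no comparison passed. H19, the maternally read long non-coding RNA next to Igf2, had 0 counts in all 12 libraries, which at 3 counts over a group allows up to 0.0281 CPM in Prx1_Cre, 0.0379 CPM in Tek_Cre and 0.0312 CPM in No_Cre. Its RNA was not detectable at this depth.

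**Figure D3:**
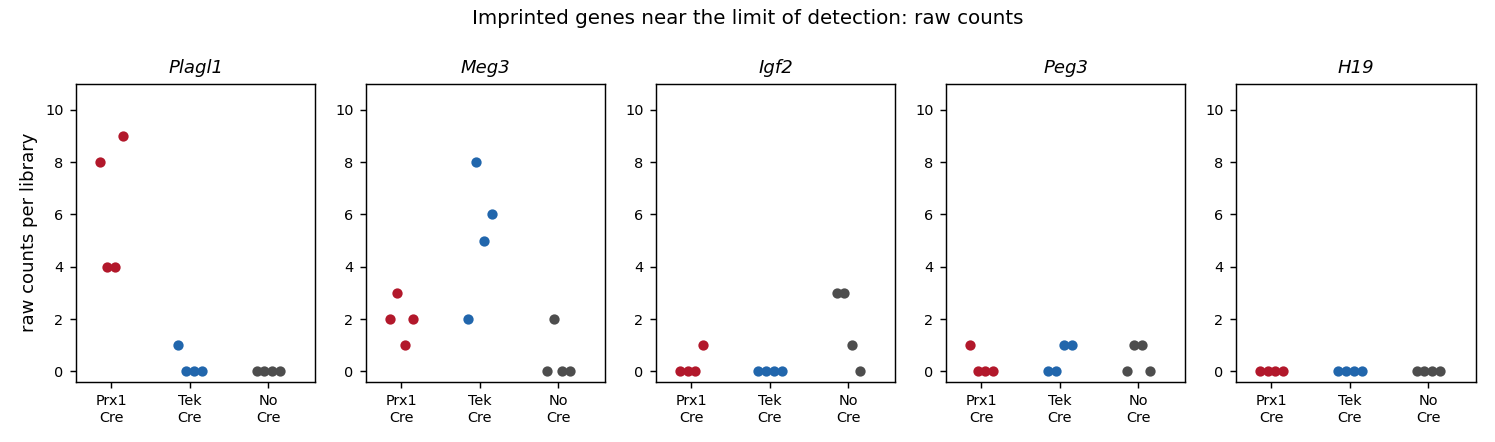
Raw counts per library of the 5 genes below the filter, 1 point per library, on a common axis (groups from left to right Prx1_Cre, Tek_Cre, No_Cre; libraries differ in depth). Plagl1 has 4 to 9 counts in each Prx1_Cre library and at most 1 elsewhere, Meg3 reaches 8 in Tek_Cre, and H19 is at 0 throughout.

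The neighbours of the changed genes moved in their own ways. At the Igf2r locus, Airn is the paternally read antisense RNA that silences Igf2r on that copy in the mouse, and it begins inside Igf2r on the other strand (chromosome 17, 12741311 to 12860136). It had 3, 3, 6 and 10 counts in the Prx1_Cre libraries and 0 in all Tek_Cre and No_Cre libraries, at the floor at least 6.61-fold higher than in No_Cre (exact lower limit 4.94; adjusted p = 1.86e-05, edgeR with no filter) and at least 5.45-fold higher than in Tek_Cre (exact lower limit 4.07; adjusted p = 6.00e-05). Airn and Igf2r were thus both higher in Prx1_Cre, but since strand is not marked, intronic reads of Igf2r could not be told from Airn. Slc22a3, a transporter of organic cations at the same locus, went the other way: it had 62.4 to 67.8 CPM in Prx1_Cre, 89.7 to 98.6 CPM in Tek_Cre and 121.1 to 127.8 CPM in No_Cre, and the 3 groups did not overlap. It fell by 0.93 ± 0.04 in Prx1_Cre against No_Cre (adjusted p = 2.40e-15, edgeR) and by 0.43 ± 0.04 in Tek_Cre against No_Cre (adjusted p = 1.11e-08). Slc22a2 had 0 counts in every library.

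At the Grb10 locus the neighbours Ddc, an enzyme of dopamine synthesis, and Cobl, an actin regulator, were low. Both were lower in Prx1_Cre, where Grb10 was higher. Ddc had means of 0.808 ± 0.0999 CPM in Prx1_Cre, 2.46 ± 0.508 CPM in Tek_Cre and 1.64 ± 0.370 CPM in No_Cre (SD, n = 4 each), and it fell by 1.02 ± 0.23 in Prx1_Cre against No_Cre (adjusted p = 0.000302, edgeR). Cobl fell by 0.95 ± 0.31 in the same comparison (adjusted p = 0.00763, edgeR), with overlapping libraries.

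At the Ndn locus, the region lost in Prader-Willi syndrome in humans, 4 of 7 neighbours could be tested. Snrpn, which encodes a splicing protein, had 3, 7, 5 and 2 counts in the Prx1_Cre libraries, 82, 32, 38 and 44 in the Tek_Cre libraries and 41, 33, 30 and 39 in the No_Cre libraries. It fell by 3.18 ± 0.36 in Prx1_Cre against No_Cre (adjusted p = 2.15e-08, edgeR) and rose by 0.73 ± 0.23 in Tek_Cre against No_Cre (adjusted p = 0.0100). Of its exon bases, 34.1% are shared with other annotated genes, so its counts depend on how shared reads were assigned. Mkrn3, a ubiquitin ligase, fell in both groups, by 0.77 ± 0.17 in Prx1_Cre and by 0.84 ± 0.18 in Tek_Cre (adjusted p = 0.000266 and 0.000398, edgeR). Peg12 fell by 0.42 ± 0.17 in Prx1_Cre (adjusted p = 0.0267). Ube3a, a ubiquitin ligase read from the maternal copy in neurons, rose by 0.27 ± 0.11 in Prx1_Cre (adjusted p = 0.0262, edgeR) with overlapping libraries. Ndn, Snrpn, Mkrn3 and Peg12 thus all fell in Prx1_Cre against No_Cre, where 39.0% of all genes tested fell. Whether this goes by parental copy was not tested. Magel2 had 0 counts, and so had Snurf, but all 216 exon bases of Snurf are shared with Snrpn or Gm38393 on the same strand, so its 0 may reflect how shared reads were assigned. Snhg14 had 8 counts in Prx1_Cre, 7 in Tek_Cre and 3 in No_Cre, and did not pass.

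At the Dlk1 and Meg3 locus, Begain, a synaptic protein gene, fell by 1.38 ± 0.17 in Prx1_Cre and by 0.51 ± 0.16 in Tek_Cre, each against No_Cre (adjusted p = 8.97e-08 and 0.0100, edgeR). Rtl1, Rian, Mirg and Dio3 had 0 to 4 counts per group, and of these Rian alone passed, in Prx1_Cre against Tek_Cre (0 against 4 counts, adjusted p = 0.0462, edgeR with no filter), where the exact upper limit of the ratio was 1.13. Usp29, beside Peg3, had 8 counts in Prx1_Cre, 0 in Tek_Cre and 1 in No_Cre, and it passed in Prx1_Cre against Tek_Cre alone (at least 1.98-fold higher at the floor, exact lower limit 1.27, adjusted p = 0.0191, edgeR with no filter). Zim1 and Ins2 had 0 counts in all libraries.

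Across a wider list of 65 other genes known as imprinted, 57 had counts and 38 could be tested. The list was not limited to genes imprinted in blood. Whether each is read from 1 copy in these cells was not measured. In Prx1_Cre against No_Cre 8 rose, 26 fell and 4 did not pass, with a median change of -0.53, beside a median of -0.02 over all genes. In Tek_Cre against No_Cre 13 rose, 8 fell and 17 did not pass (median 0.10, all genes 0.00), and in Prx1_Cre against Tek_Cre 9 rose, 24 fell and 5 did not pass (median -0.52, all genes -0.01). Over all genes 75.6%, 52.9% and 77.6% passed in these comparisons. Of all genes 36.7%, 26.4% and 37.8% rose, and 39.0%, 26.5% and 39.8% fell. In Prx1_Cre against No_Cre the fitted increases of Grb10 and Igf2r were larger than that of any of the 38. Against Tek_Cre this did not hold, since Mest (5.03), Mcts2 (2.84) and Gatm (1.83) rose more than Igf2r. Mest had 62 counts in Prx1_Cre against 1 in Tek_Cre, and Mcts2 had 52 against 5, so the sizes of their changes rest on few counts. The nearest against No_Cre was Gatm, an enzyme of creatine synthesis, which rose by 1.35 ± 0.04 to 261.7 ± 6.18 CPM in Prx1_Cre, against 102.6 ± 2.499 CPM in No_Cre (adjusted p = 1.81e-19, edgeR), and fell by 0.48 ± 0.04 in Tek_Cre against No_Cre (adjusted p = 6.94e-10).

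Pon3, a lactonase, moved in opposite directions in the 2 Cre groups. It had 15.4 ± 1.46 CPM in Prx1_Cre, 136.6 ± 12.5 CPM in Tek_Cre and 59.1 ± 1.73 CPM in No_Cre (SD, n = 4 each). It fell by 1.94 ± 0.07 in Prx1_Cre and rose by 1.21 ± 0.06 in Tek_Cre, each against No_Cre (adjusted p = 1.75e-17 and 4.13e-14, edgeR). Cdkn1c, the maternally read cell cycle inhibitor p57 that keeps stem cells quiescent in the mouse, had 3.66, 4.0, 4.85 and 4.88 CPM in the Prx1_Cre libraries, 14.7, 11.98, 13.7 and 12.7 CPM in the Tek_Cre libraries and 11.3, 9.03, 10.3 and 12.2 CPM in the No_Cre libraries. It fell by 1.30 ± 0.12 in Prx1_Cre (adjusted p = 4.00e-10, edgeR) and rose by 0.32 ± 0.10 in Tek_Cre with overlapping libraries (adjusted p = 0.0134). Its exons lie opposite Gm44732 over 30.65% of their bases. Osbpl5, a lipid transfer protein, fell by 1.16 ± 0.07 in Prx1_Cre (adjusted p = 8.82e-13, edgeR), and Kcnq1, a potassium channel, rose by 1.30 ± 0.12 in Tek_Cre (adjusted p = 4.63e-09). Peg13, a non-coding RNA on chromosome 15, fell by 0.88 ± 0.05 in Prx1_Cre (adjusted p = 1.11e-13, edgeR) and differed by 0.00 in Tek_Cre. A pair of genes was picked out after the values were seen. Sfmbt2, a Polycomb protein gene, had 0 counts in Prx1_Cre, 203 in Tek_Cre and 181 in No_Cre, and Rasgrf1, a Ras exchange factor gene, had 0 in Prx1_Cre, 47 in Tek_Cre and 24 in No_Cre. At the floor the Prx1_Cre level of Sfmbt2 was at least 66.9-fold lower than in No_Cre (exact upper limit of the ratio 0.0186) and that of Rasgrf1 at least 8.87-fold lower (0.1498).

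**Figure D4:**
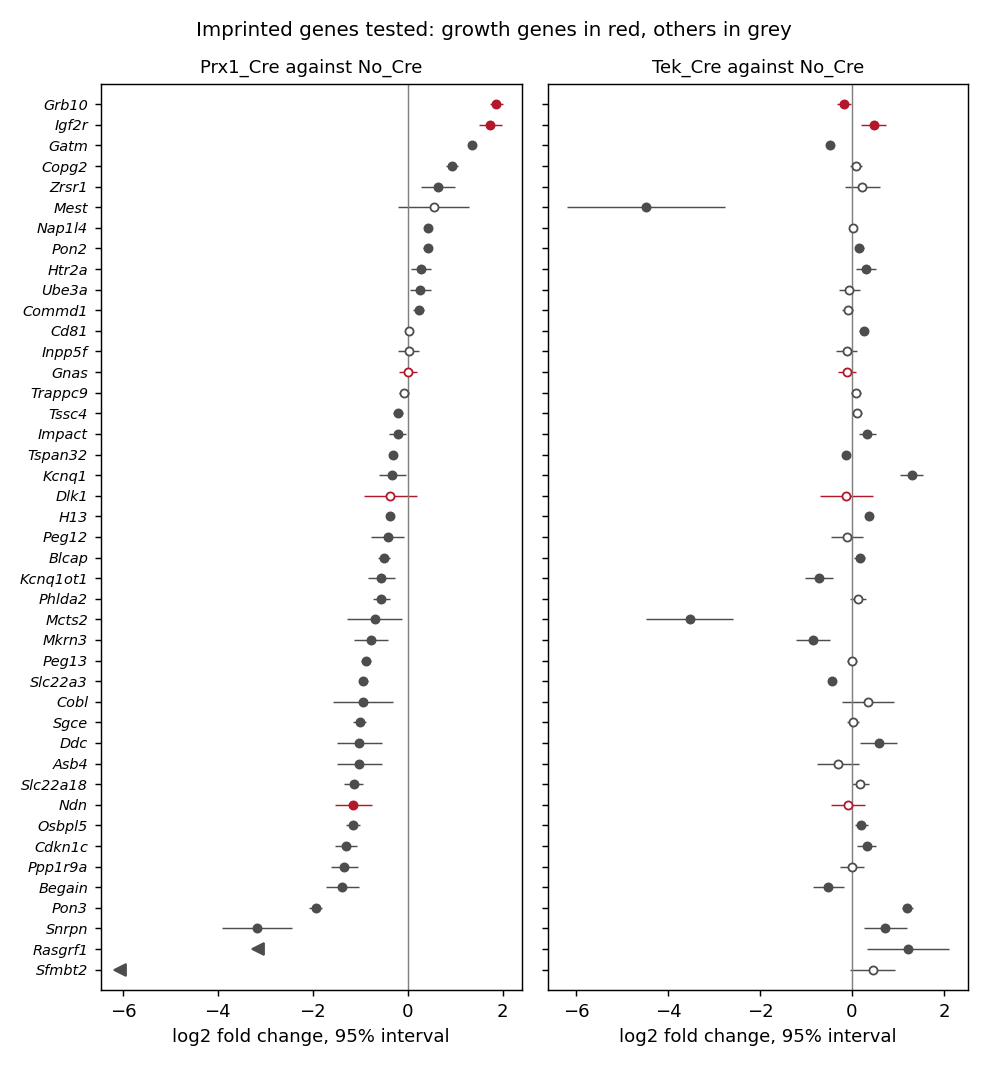
Log2 fold changes against No_Cre of all tested imprinted genes (x axis, 95% intervals; Prx1_Cre left, Tek_Cre right; filled points passed at an adjusted p of 0.05 in edgeR), ordered by the change in Prx1_Cre. Triangles mark genes with no count in Prx1_Cre (Sfmbt2, Rasgrf1), at the smallest change that the floor of 3 counts allows. Grb10 and Igf2r head the Prx1_Cre panel, in which 26 of the 38 other genes fell, beside 39.0% of all genes tested.

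Because Grb10 and Igf2r act on IGF signals, the genes of that pathway were read beside them. Of 40 listed genes of the IGF, PI3K, AKT and mTOR relay, 33 were tested. In Prx1_Cre against No_Cre 12 rose and 15 fell (median -0.12), in Tek_Cre against No_Cre 4 rose and 14 fell (median -0.14), and in Prx1_Cre against Tek_Cre 14 rose and 14 fell (median -0.05). All genes had medians of -0.02, 0.00 and -0.01, and 75.6%, 52.9% and 77.6% of them passed, so the share of this list that passed is near the background. The ligand Igf1 had 45, 27, 38 and 30 counts in the Prx1_Cre libraries, 0 in all Tek_Cre libraries and 8, 10, 7 and 4 in the No_Cre libraries. The 3 groups did not overlap. Igf1 rose by 2.10 ± 0.28 in Prx1_Cre against No_Cre (adjusted p = 7.90e-07, edgeR), was at the floor at least 7.96-fold lower in Tek_Cre than in No_Cre (exact upper limit of the ratio 0.165; adjusted p = 2.58e-05) and at least 34.7-fold higher in Prx1_Cre cells than in those from Tek_Cre mice (exact lower limit 27.8; adjusted p = 4.85e-10). Its mean level in Prx1_Cre was 1.30 ± 0.153 CPM.

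The receptor Igf1r went down in both Cre groups, with 23.6, 26.1, 25.3 and 26.3 CPM in the Prx1_Cre libraries, 33.7, 31.3, 33.7 and 33.0 CPM in the Tek_Cre libraries and 37.1, 36.4, 34.6 and 37.8 CPM in the No_Cre libraries. It fell by 0.53 ± 0.06 in Prx1_Cre and by 0.14 ± 0.06 in Tek_Cre, each against No_Cre (adjusted p = 1.03e-08 and 0.0355, edgeR). Of the proteins that bind IGFs outside the cell, Igfbp4 fell by 0.73 ± 0.04 to 245.6 ± 6.57 CPM in Prx1_Cre and by 0.38 ± 0.04 to 312.9 ± 8.53 CPM in Tek_Cre, against 408.5 ± 15.5 CPM in No_Cre (adjusted p = 1.85e-14 and 9.79e-09, edgeR). Igfbp2, which was picked out after its values were seen, had 173 counts in Prx1_Cre (25 to 59 per library) and 0 in both other groups, at the floor at least 52.0-fold higher than in No_Cre (exact lower limit 41.8).

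Below the receptors, Pik3cb, a catalytic PI3K subunit, rose by 1.12 ± 0.06 in Prx1_Cre (adjusted p = 1.50e-13, edgeR) and by 0.28 ± 0.07 in Tek_Cre (adjusted p = 0.00155). The catalytic subunits Pik3ca and Pik3cd, added after their values were seen, had lower means in Prx1_Cre than in No_Cre. These were 30.1 against 40.5 CPM for Pik3ca and 204.9 against 269.7 CPM for Pik3cd, with no overlap of libraries. The regulatory subunits Pik3r1 and Pik3r2 rose by 0.12 ± 0.05 and 0.51 ± 0.05 in Prx1_Cre (adjusted p = 0.0282 and 1.09e-08, edgeR), and in Tek_Cre they fell by 0.42 ± 0.05 and 0.25 ± 0.06 (adjusted p = 1.04e-07 and 0.000724). Foxo1, a transcription factor that AKT holds out of the nucleus, had 13.2 to 14.9 CPM in Prx1_Cre, 32.4 to 37.6 CPM in Tek_Cre and 30.1 to 32.6 CPM in No_Cre, and it fell by 1.16 ± 0.07 in Prx1_Cre against No_Cre (adjusted p = 9.29e-14, edgeR). Deptor, an mTOR inhibitor, fell by 0.89 ± 0.05 in Prx1_Cre (adjusted p = 1.44e-13, edgeR) and did not pass in Tek_Cre (change 0.11, adjusted p = 0.075). Eif4ebp2, which represses translation under mTOR control, fell by 0.76 ± 0.07 in Prx1_Cre and by 0.68 ± 0.08 in Tek_Cre (adjusted p = 2.78e-09 and 8.83e-08, edgeR). Tsc1, another brake on mTOR, fell by 0.55 ± 0.06 in Tek_Cre (adjusted p = 1.32e-07, edgeR) and did not pass in Prx1_Cre (change 0.00, adjusted p = 0.954). Tsc2, added after its values were seen, had means of 150.5 CPM in Prx1_Cre, 104.6 CPM in Tek_Cre and 115.4 CPM in No_Cre.

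**Figure D5:**
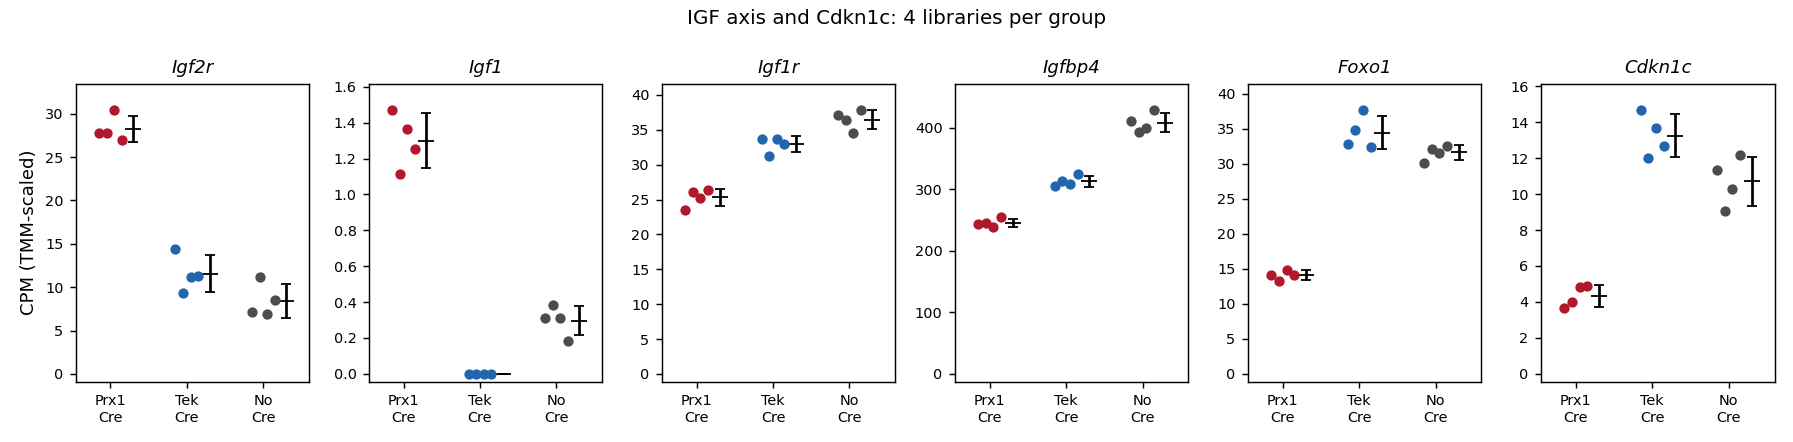
CPM of Igf2r beside Igf1, Igf1r, Igfbp4, Foxo1 and Cdkn1c, with 1 point per library and the mean ± SD of the 4 libraries (groups from left to right Prx1_Cre, Tek_Cre, No_Cre; each panel has its own axis, from 0). Igf2r and Igf1 are highest in Prx1_Cre, Igf1r, Igfbp4, Foxo1 and Cdkn1c are lowest there, and Igf1 is at 0 in all 4 Tek_Cre libraries.

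Of 16 listed proteins that set, keep or erase imprints or insulate imprinted loci, 15 were tested. In Prx1_Cre against No_Cre 9 rose and 6 fell (median 0.34), in Tek_Cre against No_Cre 4 rose and 7 fell (median -0.14), and in Prx1_Cre against Tek_Cre 8 rose and 5 fell (median 0.23). Over all genes 75.6%, 52.9% and 77.6% passed, with medians of -0.02, 0.00 and -0.01. Ctcf, the insulator protein at the Igf2 and H19 locus, rose by 0.46 ± 0.04 to 164.7 ± 4.67 CPM in Prx1_Cre and by 0.22 ± 0.04 to 140.2 ± 4.59 CPM in Tek_Cre, against 120.1 ± 2.92 CPM in No_Cre (adjusted p = 1.80e-10 and 4.54e-05, edgeR). The upkeep factors Uhrf1, Hells and Trim28 rose in Prx1_Cre by 0.52 ± 0.04, 0.73 ± 0.09 and 0.22 ± 0.04 (adjusted p = 2.47e-10, 6.70e-08 and 0.000119, edgeR). In Tek_Cre the same 3 genes fell, by 0.14 ± 0.05, 0.35 ± 0.10 and 0.21 ± 0.04 (adjusted p = 0.0115, 0.00369 and 0.000440). The methyltransferases did not move together. Dnmt1, which copies methylation at cell division, and Dnmt3l, a cofactor of the germ line, were added after their values were seen, and they rose in Prx1_Cre by 0.34 ± 0.04 and 0.84 ± 0.22 (adjusted p = 4.77e-08 and 0.00147, edgeR), to 627.2 and 1.77 CPM, against 495.2 and 0.997 CPM in No_Cre. Dnmt3a and Dnmt3b, which set methylation anew, fell in Prx1_Cre by 0.71 ± 0.05 and 0.39 ± 0.04 and in Tek_Cre by 0.37 ± 0.05 and 0.21 ± 0.04 (adjusted p = 2.92e-11, 1.48e-08, 4.12e-06 and 0.000232, edgeR). Tet1 and Tet3, which begin the removal of methylation, fell in Prx1_Cre by 1.06 ± 0.08 and 0.83 ± 0.06 (adjusted p = 2.78e-11 and 6.93e-12, edgeR).

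Of 8 genes of the fetal stem cell programme 4 were tested, of which 3 rose and 1 fell in Prx1_Cre against No_Cre (median 0.49), and 1 rose and 1 fell in Tek_Cre against No_Cre (median 0.08). With 75.6% and 52.9% of all genes passing, these counts say nothing about the programme as a whole. Lin28a, an RNA-binding protein of fetal and germ cells, rose by 1.13 ± 0.13 to 5.36 ± 0.669 CPM in Prx1_Cre, against 2.43 ± 0.250 CPM in No_Cre (adjusted p = 5.78e-08, edgeR). Hmga2, a chromatin protein of fetal stem cells, went the other way and fell by 1.36 ± 0.20 (adjusted p = 1.76e-06). Arid3a rose by 0.74 ± 0.06 in Prx1_Cre and by 0.50 ± 0.06 in Tek_Cre (adjusted p = 2.12e-11 and 1.06e-07, edgeR), while Hmga1 rose by 0.23 ± 0.06 in Prx1_Cre and fell by 0.30 ± 0.06 in Tek_Cre (adjusted p = 0.00155 and 0.000514).

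Markers of other cells moved with these results. All 13 of 13 erythroid markers rose in Prx1_Cre against No_Cre, with a median change of 3.83, and 11 of 13 fell in Tek_Cre. In the same comparisons 13 of the 15 LTHSC markers, Cdkn1c among them, fell in Prx1_Cre and 1 rose. In Tek_Cre 10 of them rose and 2 fell. Of all genes tested 36.7% rose and 39.0% fell in Prx1_Cre against No_Cre. In Tek_Cre against No_Cre 26.4% rose and 26.5% fell, and in Prx1_Cre against Tek_Cre 37.8% rose and 39.8% fell. Stromal markers were low in every group, at 64.4 to 70.7 CPM in Prx1_Cre, 74.7 to 87.5 CPM in Tek_Cre and 99.1 to 104.8 CPM in No_Cre for the sum of 14 genes. Of these Prrx1 was at 0 in all 3 groups, Pdgfra was at 0 in Prx1_Cre, and Adipoq, an adipocyte hormone, had 126 counts in Prx1_Cre, 1 in Tek_Cre and 0 in No_Cre. Of the 7 stromal genes tested, 4 rose and 3 fell in Prx1_Cre against No_Cre (median 0.74). In Tek_Cre against No_Cre 2 rose and 3 fell (median -0.24). In Prx1_Cre against Tek_Cre 2 rose and 3 fell (median -0.38). Endothelial markers summed to 108.2 to 114.0 CPM in Prx1_Cre, 180.5 to 198.9 CPM in Tek_Cre and 211.2 to 224.6 CPM in No_Cre. Of the 8 endothelial genes tested, 3 rose and 4 fell in Prx1_Cre against No_Cre (median -0.28). In Tek_Cre against No_Cre 0 rose and 6 fell (median -0.93). In Prx1_Cre against Tek_Cre 5 rose and 3 fell (median 0.85). In the comparisons with Prx1_Cre the stromal and endothelial sums therefore do not give the direction of each gene in their lists. B cell and plasma cell markers summed to 296.7 to 303.3 CPM in Prx1_Cre, 2547 to 2609 CPM in Tek_Cre and 832.1 to 857.0 CPM in No_Cre. The part of these cells in the changes of the imprinted genes was not tested. Without the immunoglobulin genes in the scaling, no call of the 5 tested genes changed.

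The genes most like 4 of the tested genes were found by the distance between pairs of log2 changes (Prx1_Cre and Tek_Cre, each against No_Cre), over 3 groups of 4 libraries, among genes that averaged 5 CPM or more. For Grb10 they were Gm1840, Abcb9 and Ssx2ip, at distances of 0.02, 0.12 and 0.13. For Igf2r they were Acp5, Pcx and Klf5, at 0.08, 0.08 and 0.11. For Ndn they were Prkch, Batf and Adgrg1, at 0.01, 0.02 and 0.02, and for Gnas they were H2afj, Yrdc and Rpl27, all within 0.02. Apart from Gm1840, the genes nearest to Grb10 and Igf2r were farther away than those nearest to Ndn and Gnas.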

How the data were processed

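The authors deposited raw read counts per gene for 12 libraries, made with SMARTer Ultra Low Input v4 and Nextera XT, per the labels' protocols. Trim Galore 0.4.4, STAR 2.5.3a, HTSeq 0.9.1, DESeq2 1.18.1 and GRCm38 are named, without their roles, per the submitters' processing notes. The annotation release, strand setting and any filters are not given in the sources used here. Symbols from GENCODE M21 matched 48349 of 48795 gene IDs. Counts were tested with edgeR 4.0.16 (R 4.3.3; robust quasi-likelihood test, TMM factors, filterByExpr, the group as the only term, Benjamini-Hochberg adjustment). CPM is the count over the TMM-scaled total of the 14756 genes tested. Alternatives were RLE and upper-quartile factors, other filters, the 8 compared libraries alone, no immunoglobulin genes, a replicate block, each library left out and DESeq2 1.42.0. The code was tested on simulated data. A first pass mark for the share of changed genes recovered was missed, through genes with low counts, and was then set by depth. Ratios of low counts have exact binomial 95% intervals. The genes, lists and tests were chosen with earlier results of these data known. Beside the 10 genes and the neighbours at their loci, the text names up to 4 genes per list and comparison, those with the smallest p, no overlap of libraries and at least 1 CPM. The genes most like Dlk1 are not reported here.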

Additional observations from a re-analysis of the deposited data

Results flagged for a closer look

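Of 25 groups of 4 libraries with any count of one of the 10 genes, 4 held a library far from the other 3. In each of the 4 it was the single library with any count, a case that the rule always flags. The usual rate of about 1 group in 20 flagged by chance therefore does not apply to them. Igf2 had 0.0417 CPM in Prx1_Cre replicate 4, Peg3 had 0.0327 CPM in Prx1_Cre replicate 1, Plagl1 had 0.0438 CPM in Tek_Cre replicate 1 and Meg3 had 0.0769 CPM in No_Cre replicate 2. These values rest on 1 count each for Igf2, Peg3 and Plagl1 and on 2 counts for Meg3. No library stood apart in this way for Grb10, Igf2r, Ndn, Dlk1 or Gnas.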

How the results depend on the processing

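In Prx1_Cre against No_Cre, Grb10 ranged from 1.77 to 1.89, Igf2r from 1.64 to 1.91 and Ndn from -1.26 to -0.98 over 20 alternatives, and each passed in all of them. The CPM levels depend on the scaling. Group means of the 10 genes were rescaled without TMM factors, and without immunoglobulin genes in the totals. They moved by more than their SD in 17 of these checks and by no more than it in 33. Against a change of more than 2-fold, a test chosen after seeing the data, 762 of all genes were called higher and 1412 lower in Prx1_Cre against No_Cre, 624 and 490 in Tek_Cre against No_Cre, and 1048 and 1824 in Prx1_Cre against Tek_Cre. Of the 10 genes it called 0 lower in any comparison and 0 higher in Tek_Cre against No_Cre. With no filter on low counts, Tek_Cre against No_Cre had 2 of the 10 genes higher and 2 lower, and Prx1_Cre against Tek_Cre had 2 lower, because Meg3 and Igf2 then enter the test. Plagl1 also enters, and it was called higher in Prx1_Cre against No_Cre and against Tek_Cre (adjusted p = 4.24e-06 and 0.000245, edgeR with no filter). Over the alternatives 2 to 3 of the 10 genes were called higher in each of these comparisons. DESeq2 called 2 higher in Tek_Cre against No_Cre. Leaving out each library in turn gave 0 to 1 lower in Tek_Cre against No_Cre.

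Some genes that did not pass changed sign. Gnas in Prx1_Cre against No_Cre was -0.092 with upper-quartile factors, -0.0025 with a filter of 1 CPM in 4 libraries, -0.0033 without immunoglobulin genes and -0.047 to 0.044 with a library left out. With a library left out, Dlk1 ran from -0.58 to 0.064 and Ndn from -0.21 to 0.073 in Tek_Cre against No_Cre, and Dlk1 from -0.43 to 0.21 in Prx1_Cre against Tek_Cre. The cause was not tested. In Tek_Cre against No_Cre, the IGF and PI3K genes that rose numbered 2 in place of 4 without No_Cre replicate 3 or Tek_Cre replicate 3 or 4. The genes that keep imprints and rose numbered 2 in place of 4 with upper-quartile factors or without No_Cre replicate 1 or 4 or Tek_Cre replicate 2.

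With a replicate block, 5532 genes were higher and 5886 lower in Prx1_Cre against No_Cre (5411 and 5749 without it), 4177 and 4191 in Tek_Cre against No_Cre (3896 and 3911), and 5685 and 6006 in Prx1_Cre against Tek_Cre (5571 and 5873). It changed no call of the 5 genes tested. Deviations from the group means correlated at -0.0322 to 0.204 between libraries of the same number and at -0.135 to 0.0602 between others, and not every pair of the same number was above 0.1, so the numbers were not taken as a pairing. A library was closest to its own number in 15 of 24 cases, with 4 candidates each. That is more often than an even draw would give, and it is a hint from the data and not from the design. Depth limits H19, Igf2, Peg3, Meg3 and Plagl1, which had at most 31 counts in all.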
